A study of Mus musculus with 76 samples.

Results

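Single macrophages from the atrioventricular (AV) node, the tissue that conducts the heartbeat from atria to ventricles, were compared by their level of Retnla, the transcript of a protein secreted by macrophages. The cells came from wild-type C57BL/6J mice, and the labels name no treatment of the animals; they give neither age nor the number of animals. Digested node tissue was sorted for living cells high in CD45, CD11b and F4/80, with low or intermediate Ly6C and low lineage markers, and each cell was sequenced on its own. The deposited table holds 76 libraries, of which transcriptomes 13 and 19 were nearly identical (their log2 values correlated at a Pearson r of 0.978, and no other of 2849 pairs exceeded 0.421) and were averaged as 1 cell. That left 75 cells, all of 1 group. The cells were chosen by their measured Retnla value in counts per 1000000 reads (CPM): 13 cells at 1000 CPM or more are called Retnla-high, and 29 cells below 10 CPM are called Retnla-low. The other 33 cells lay between the thresholds. Because no animal, chip or batch is named in the labels, all cells count as 1 sample, so no test was made and no p-value is given; every difference below describes these cells. Transcripts of the Y chromosome differed between cells, with a summed level of 10 CPM or more in 11 of 13 Retnla-high and 15 of 29 Retnla-low cells, and Eif2s3y, 1 of 4 sex-linked genes compared, was higher by the rule given below (2.68 on the log2 scale). The part of sex or animal in the results was not tested.

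Retnla encodes RELMα (also called Fizz1), a small cysteine-rich protein of the resistin-like family that macrophages secrete. Its transcription is a textbook target of interleukin-4 and interleukin-13, which bind receptors containing the Il4ra chain and act through the transcription factor Stat6. High Retnla is therefore widely used as a mark of alternative activation, together with mannose receptor, C-type lectins, arginase and chitinase-like proteins. In the heart, macrophages are commonly divided into long-lived resident cells, with Lyve1, Timd4 and Folr2, and cells replenished from blood monocytes, with the chemokine receptor Ccr2.

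Retnla itself, which the selection used, spread widely even within the sets. In the Retnla-high cells it ran from 1028.7 CPM through a median of 12376.1 CPM to 57872.1 CPM. The Retnla-low cells held 0 to 9.5 CPM with a median of 2.4 CPM, and 8 of them were listed at 0. The cells between had a median of 72.7 CPM. A few cells carried most of the transcript: 97.28% of all Retnla CPM fell in the 13 Retnla-high cells. Of these, 11 were at 4615.9 CPM or more, and the remaining 2 stood at 1028.7 and 1287.9 CPM. Just outside the upper threshold were cells at 928.3, 886.6, 718.4 and 648.1 CPM. At the lower threshold, cells at 9.5, 8.2 and 7.1 CPM were inside and the next 3 cells, outside, stood at 3.51, 3.54 and 3.56 on the log2(CPM + 1) scale, where the threshold is 3.46.

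**Figure D1:**
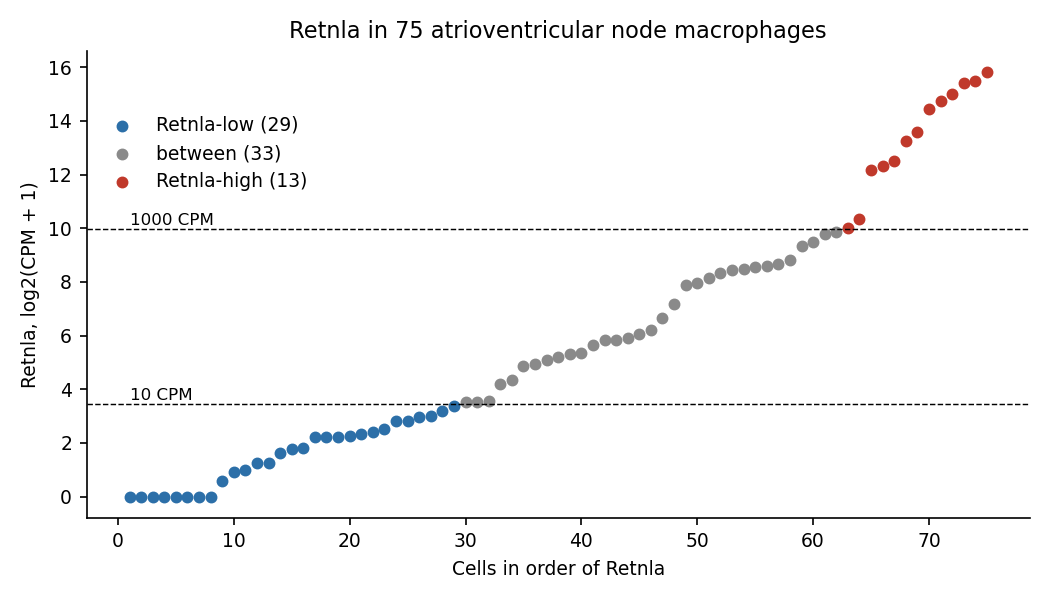
Retnla in each of the 75 cells, ordered from lowest to highest, on a log2(CPM + 1) axis; colours give the 3 sets and dashed lines the thresholds of 10 and 1000 CPM. The values climb gradually up to the upper threshold, and 11 cells stand apart at 4615.9 CPM or more.

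The promoter of Retnla is shown because the gene is known for its control by Stat6. The 250 bases before its start, from RefSeq on GRCm38.p6 (chr16:48842359-48842608, + strand), are printed with 2 kinds of match in capitals. One is a palindromic pattern of the kind bound by Stat6, TTC and GAA with 4 bases of any kind between them, 145 to 136 bases before the start. The other is the pattern GAGGAAGT of the kind bound by PU.1, the master factor of macrophages, on the reverse strand, 198 to 191 bases before the start.
Retnla: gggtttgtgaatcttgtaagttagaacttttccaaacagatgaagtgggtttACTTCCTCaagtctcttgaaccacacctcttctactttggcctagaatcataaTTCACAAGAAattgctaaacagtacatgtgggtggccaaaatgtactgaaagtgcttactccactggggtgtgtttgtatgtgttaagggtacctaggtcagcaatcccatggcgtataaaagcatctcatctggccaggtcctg
Among the genes described below, Lgals3 also holds the Stat6-type pattern in its promoter window (GRCm38.p6 chr14:47373610-47373909, + strand), at 2 places. They are shown with the pattern in capitals and 10 bases on each side, 238 and 225 bases before the start.
Lgals3, farther site: tcactgccatTTCTGCGGAAggcttcaggt
Lgals3, nearer site: tgcggaaggcTTCAGGTGAAggaattaggg
Over windows of 300 bases around the start, on both strands, the Stat6-type pattern occurred in 8.036% of 112 genes higher in Retnla-high cells (9 genes), 8.163% of 49 lower genes and 6.641% of the 5647 compared genes that have a promoter entry. The share was 8.007% over all 27025 genes of the promoter table; the shares in the higher and lower genes were close to it. GAGGAAGT occurred in 6.25%, 4.082% and 4.463% of the same 3 sets. Patterns of AP-1 (TGANTCA) and C/EBP (TTGNNCAA) were searched too and have no match in the Retnla window. TGANTCA occurred in 13 of the 112 higher genes (11.61%), 8 of the 49 lower genes (16.33%) and 6.233% of the compared genes, and TTGNNCAA in 4.464%, 8.163% and 6.304%. Over all genes of the promoter table the shares were 3.689% for GAGGAAGT, 8.973% for TGANTCA and 7.364% for TTGNNCAA. A match describes letters and shows no binding.

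Both sets held the transcripts of macrophages. Lyz2, which encodes lysozyme M, ran from 14240.6 through 23463.7 to 39036.7 CPM (lowest, median, highest) in Retnla-high cells and from 1793.3 through 19538.6 to 50582.5 CPM in Retnla-low cells. The Fc receptor chain Fcer1g was at least 353.9 CPM in every Retnla-high and 219.5 CPM in every Retnla-low cell, with means of 1975 ± 999 CPM (SD, n = 13) and 1865.2 ± 1109.1 CPM (SD, n = 29). Summed over 21 macrophage markers, the level was 26589.1 to 74808.3 CPM in Retnla-high and 7688.1 to 89270.4 CPM in Retnla-low cells. Estimated depth had medians of 2125730 and 2124181 reads per cell, with means of 2810685 and 2239754 and lowest values of 974518 and 269305 reads in Retnla-high and Retnla-low cells. More genes were above 0 in Retnla-high cells (median 3817, range 2872 to 4327) than in Retnla-low cells (median 3013, range 2417 to 4382). The 2 B cell, 4 cardiomyocyte, 6 dendritic cell and 2 neutrophil markers compared had no member that met the rule below. Nor did the endothelial, fibroblast, platelet and neuron or Schwann cell lists, with 1 marker compared in each. Over all genes 1.70% were higher and 0.766% lower by that rule, so lists this short would hold few or none. Summed fibroblast, endothelial and neuron or Schwann cell markers reached 3145.2, 3099.2 and 2188.6 CPM in single Retnla-low cells. In Retnla-high cells they reached 234.3, 83.6 and 225.3 CPM, and their medians were at most 1.1 CPM in both sets. The genes of the mast cell, smooth muscle, mesothelial and erythroid lists are not analysed here. Of monocyte markers, 1 of 3 compared was higher (Fn1), and their summed level was 0 to 7428 CPM in Retnla-high against 0 to 666.1 CPM in Retnla-low cells. Of eosinophil markers, 1 of 2 was higher (Ear2), with sums of 0 to 1877.7 CPM against 0 to 253.5 CPM. The other monocyte and eosinophil markers of the lists are not analysed here, and the part of such cells in the results was not tested.

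Across 8350 genes above 0 in at least 8 cells, 142 were higher in Retnla-high cells (1.70% of the genes compared) and 64 were lower (0.766%). A gene was counted where its mean log2(CPM + 1) differed by at least 2 and its mean CPM by at least 2 times in the same direction, both also with any 1 cell left out. The median difference of all genes was 0.16. When the number of genes detected per cell entered as a covariate, an alternative added after the data were seen, the counts became 85 higher and 123 lower; higher genes were then 40.87% of those counted, in place of 68.93%, and the median difference of all genes was -0.01. Thinning every cell to 250000 estimated reads gave 143 higher and 64 lower genes, of which 69.08% were higher. Detection differed between the sets, and its part in the balance cannot be told apart from that of the sets. No gene counted in one direction was counted in the other under any alternative run. Apart from Retnla, no gene named here separated the sets without overlap.

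**Figure D2:**
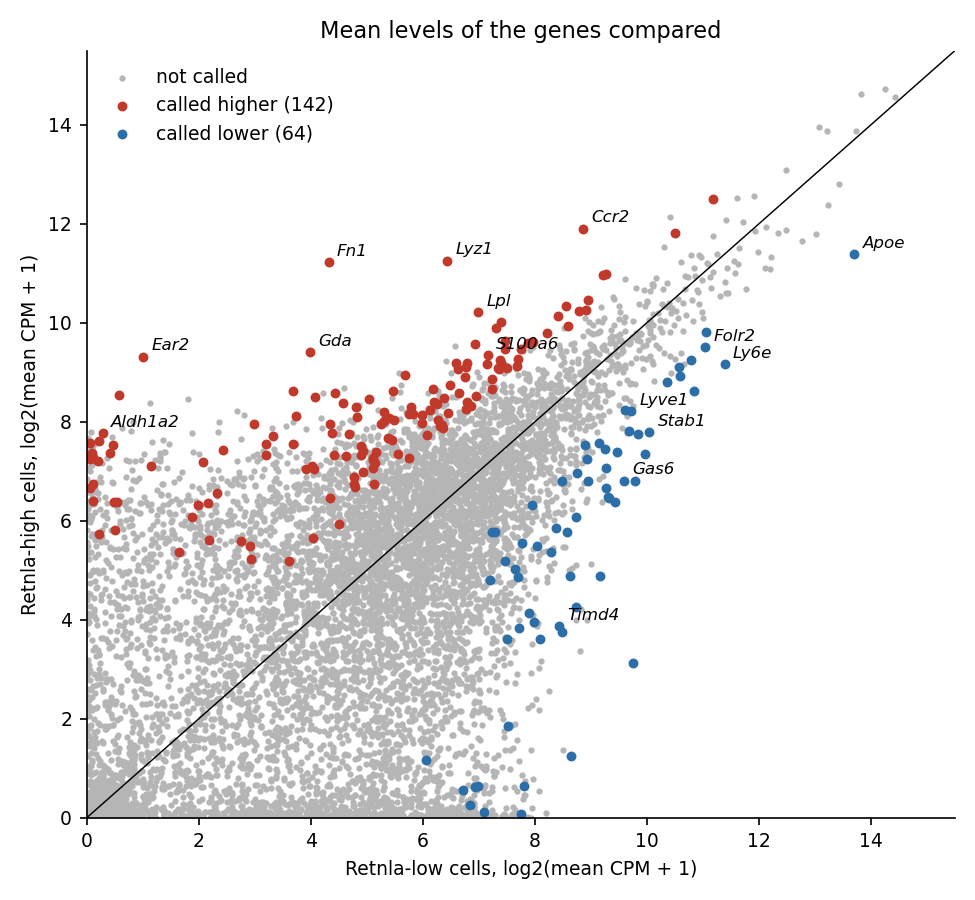
Mean level of each of the 8350 genes in Retnla-low (x axis) and Retnla-high cells (y axis), both as log2(mean CPM + 1); the line marks equal means. Red points are the 142 genes counted as higher and blue points the 64 counted as lower; Ear2, Fn1 and Gda stand far above the line, and Apoe is the most abundant gene below it.

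The largest difference belonged to Gda, guanine deaminase, an enzyme of purine breakdown. Its level was 0, 379.6 and 2781.7 CPM (lowest, median, highest) in Retnla-high cells and 0, 0 and 236.7 CPM in Retnla-low cells. It reached 100 CPM in 12 of 13 Retnla-high cells (92.31%, exact Clopper-Pearson 95% interval 63.97 to 99.81) and in 2 of 29 Retnla-low cells (6.897%, 0.8464 to 22.77), where the intervals reflect only how many cells were sampled. The difference of mean log2(CPM + 1) was 7.20, and 9 Retnla-high cells lay above every Retnla-low cell. Gda was also the gene most like Retnla over all 75 cells, with a Spearman correlation of 0.510 among 4735 genes above 0 in at least 20 cells. The next were Ear2 (0.493), the lipoprotein lipase gene Lpl (0.471), Phlda1 (0.445) and the glutaredoxin gene Glrx (0.427). Gm10717, Ethe1, Polrmt, Fn1 and Ccr2 completed the first 10, at 0.417 to 0.397; the median over all genes was 0.037. These correlations share the selection on Retnla and the cells' detection, and they describe the cells only.

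Ear2, an eosinophil-associated ribonuclease that macrophages can also express, was nearly confined to Retnla-high cells among the sets compared. It ran from 0 through 469.9 to 1649.2 CPM in Retnla-high cells, whereas 28 of the 29 Retnla-low cells were under 10 CPM and the other held 27.8 CPM. At 10 CPM or more it was found in 8 of 13 Retnla-high, 1 of 33 between and 1 of 29 Retnla-low cells. Of the 10 Ear2-positive cells in the whole series, 8 were Retnla-high. The Ear family has close copies, so reads may have been split or lost among them, and the Ear2 level is uncertain to that extent. Besides Ear2, only 1 eosinophil marker could be compared; it was not counted in either direction.

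Fn1, the matrix glycoprotein fibronectin and also a monocyte marker, followed the same cells. Its level was 0, 1602.8 and 7428 CPM in Retnla-high cells; in Retnla-low cells the median was 0 CPM and 1 cell, at 534.6 CPM, reached 10 CPM. Both Ear2 and Fn1 were at 10 CPM or more in 7 of 13 Retnla-high cells, 1 of 33 between and 0 of 29 Retnla-low cells (exact interval up to 11.94%). Lpl, which releases fatty acids from lipoproteins, was at 0.4, 581.1 and 3551 CPM in Retnla-high cells and 0, 0 and 2092.4 CPM in Retnla-low cells. Here the sets overlapped more, since 5 Retnla-low cells were also at 10 CPM or more. The differences of mean log2(CPM + 1) were 6.46 for Fn1 and 6.46 for Lpl.

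A set of 14 genes known from monocyte-derived macrophages had the highest median difference of the lists, 4.03 against 0.16 over all genes. The list named 20 genes, of which these 14 had values. All lists were chosen with earlier results of these data known, so their counts describe these cells and are no independent support. Of the 14 genes, 8 were higher, against 1.70% of all genes: Ccr2, S100a4, S100a6, Cd52, Lgals3, Ifitm6, Clec4b1 and Emb. None was lower, and all 14 differences were above 0. Ccr2, the receptor that brings monocytes out of bone marrow and into tissue, was at 3.8, 3882.3 and 13014.3 CPM in Retnla-high cells and at 0, 5.9 and 7942.6 CPM in Retnla-low cells. It reached 100 CPM in 11 of 13 Retnla-high cells (84.62%, interval 54.55 to 98.08), 8 of 33 between cells and 4 of 29 Retnla-low cells (13.79%, 3.889 to 31.66). S100a6, a calcium-binding protein, was present in all Retnla-high cells, from 47 through 705.3 to 1369.2 CPM, against 0, 0.4 and 1073.3 CPM. Lgals3, the sugar-binding protein galectin-3, was at 0, 368.7 and 1329.2 CPM against 0, 0.5 and 1709.8 CPM. In each of these the highest Retnla-low cell reached as high as most Retnla-high cells. For Ccr2 the next Retnla-low cell held 2469.1 CPM. Ccr2 was above 0 in 73 of 75 cells, so for it the sets differed in how many cells held a high level.

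Other leading genes were of mixed function. Capg, which caps actin filaments, was at 48.6 CPM or more in every Retnla-high cell (median 1072.5 CPM) against a median of 2.4 CPM in Retnla-low cells, a difference of 5.60. The annexin genes Anxa1 and Anxa2, whose products bind membrane phospholipids, differed by 5.12 and 4.61, and Tubb6, a beta-tubulin, by 4.87. Id2, an inhibitor of helix-loop-helix transcription factors, differed by 5.13, with medians of 883.3 and 0.4 CPM. Rnh1, the cytosolic ribonuclease inhibitor, differed by 4.91. Lyz1, the second lysozyme gene, was at 1.4, 1662.2 and 9767.4 CPM in Retnla-high and 0, 7.4 and 1867.5 CPM in Retnla-low cells. Lyz1 and Lyz2 are near-identical, and at this similarity their reads may have been divided unevenly, so that value is uncertain; Lyz2 differed by only 0.30. The same caution holds for Clec4b1, a C-type lectin of a family with close copies, which differed by 5.11.

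**Figure D3:**
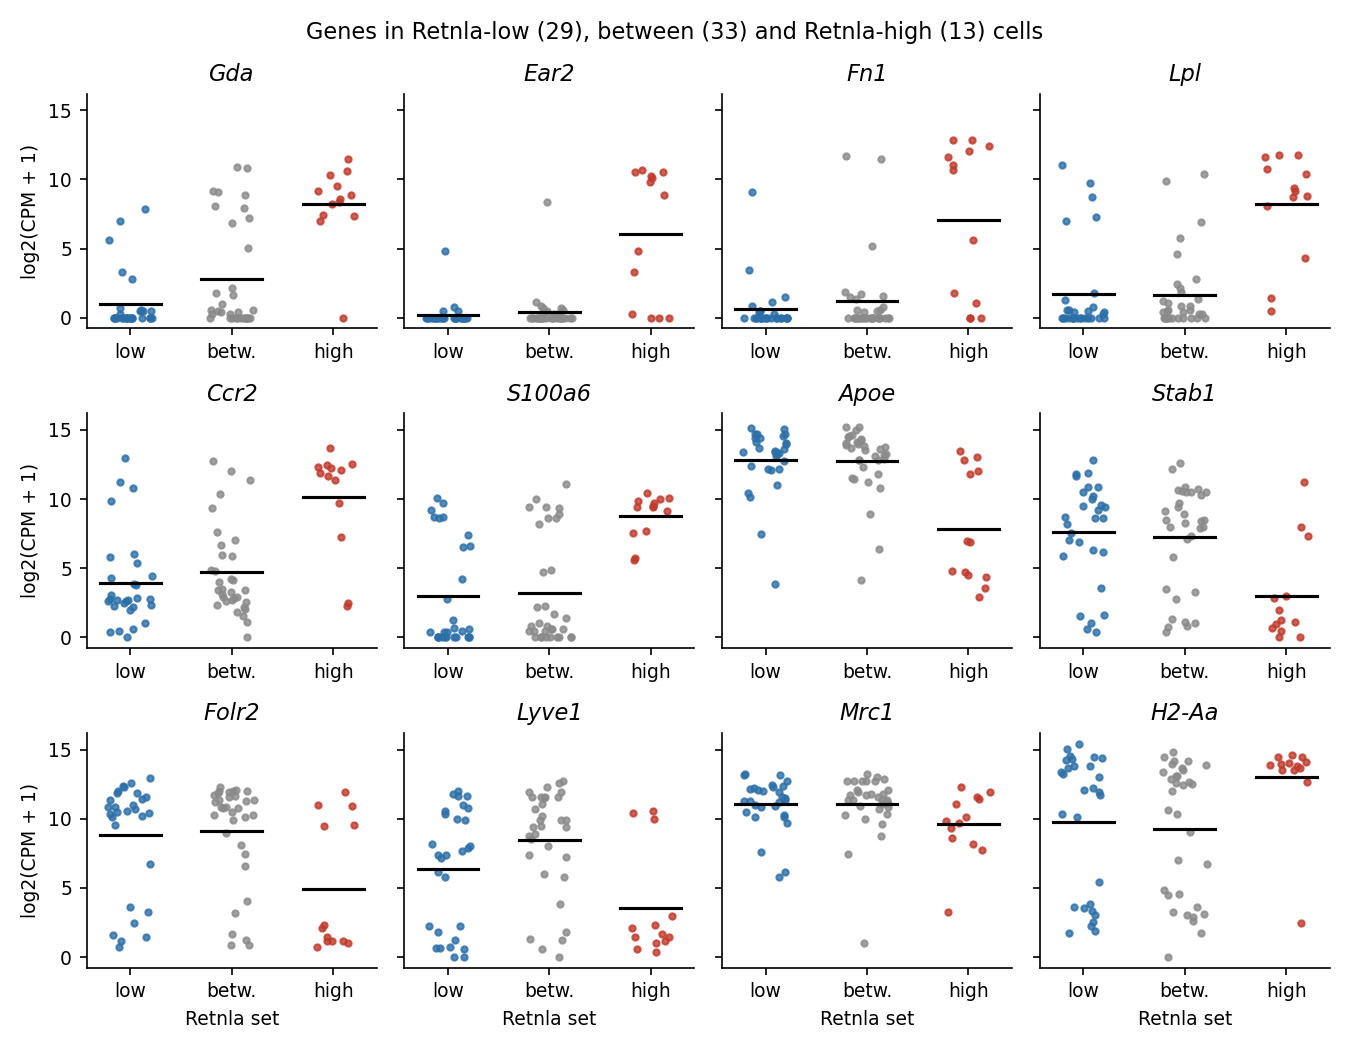
Levels of 12 genes as log2(CPM + 1) in every Retnla-low, between and Retnla-high cell; each point is 1 cell and black bars are means. Gda, Ear2, Fn1, Lpl, Ccr2 and S100a6 have higher means in Retnla-high cells, with some high cells in the other sets; Apoe, Stab1, Folr2 and Lyve1 have lower means there, and Mrc1 overlaps widely.

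Genes of resident heart macrophages were lower. Of 24 compared, 12 were lower in Retnla-high cells and none was higher, against 0.766% and 1.70% of all genes. The median difference was -2.47, and this list too was chosen with earlier results of these data known. Several remove material from the surroundings: Stab1 (stabilin-1, a scavenger receptor), Timd4 (a receptor for phosphatidylserine on dying cells) and Colec12 (a scavenger collectin) belong here, with the bridging ligand Gas6. Stab1 was at 0, 1.4 and 2449.1 CPM in Retnla-high cells and 0.3, 405.3 and 7387.6 CPM in Retnla-low cells. Folr2, a folate receptor, was at 0.7, 3.3 and 3963 CPM against 0.7, 1531.5 and 7868.1 CPM. Lyve1, a hyaluronan receptor, was at 0.3, 2.2 and 1494.5 CPM against 0, 169 and 4203.5 CPM, and reached 100 CPM in 3 of 13 Retnla-high, 25 of 33 between and 17 of 29 Retnla-low cells. The remaining lower members were Rnase4, Cbr2, Hpgd, Fcgrt, Maf and Ltc4s, with differences of -4.70 to -2.36. Colec12 was at most 0.6 CPM in Retnla-high cells and reached 10 CPM in 11 of 29 Retnla-low cells.

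Apoe, which carries lipids out of macrophages, had the lowest difference of all genes, -4.97. It was at 6.5, 117.5 and 11135.8 CPM in Retnla-high cells and 13.7, 10911.7 and 36414.9 CPM in Retnla-low cells. At 1000 CPM or more it was found in 5 of 13 Retnla-high cells and in 27 of 29 Retnla-low cells. Ly6e, a membrane-anchored protein of the Ly6 family, differed by -4.88, with medians of 6.6 and 2025.5 CPM. Hpgds, which makes prostaglandin D, was at 10 CPM or more in 1 of 13 Retnla-high and 18 of 29 Retnla-low cells. Gpr183, a receptor for oxysterols, differed by -4.00, and Tcf4, a helix-loop-helix transcription factor, by -3.74. Cd63, a tetraspanin of late endosomes, differed by -3.86. Tmem37, Prune2 and Adap2 were also among the 15 lower genes with the largest differences, at -4.54, -4.22 and -3.70.

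The genes that carry the interleukin-4 and interleukin-13 signal held no member that met the rule. None of 17 compared was higher or lower, where 1.70% and 0.766% of all genes were, so a list of this size would hold few or none at that share; their differences ran from -0.88 to 1.57, with a median of 0.19. Il4ra, the shared receptor chain, was at 10 CPM or more in 5 of 13 Retnla-high cells and 6 of 29 Retnla-low cells, with means of 148.5 ± 277 and 182.1 ± 602.2 CPM (SD) and a difference of mean log2(CPM + 1) of 1.51. Il13ra1, its partner in the type II receptor, was at 10 CPM or more in 4 of 13 and 9 of 29 cells. Stat6 was at 0, 17.7 and 649.6 CPM in Retnla-high cells and 0, 11.9 and 3157.3 CPM in Retnla-low cells, a difference of 0.19. The kinase Jak1 differed by -0.88, Klf4, a factor that cooperates with Stat6, by 1.34, and the phosphatase gene Ptpn6 by 1.57. These transcripts report the amount of the pathway's parts and not its activity.

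Other genes of alternative activation divided. Of 21 compared, Ear2 was higher and Ccl24 and Cbr2 were lower, where 1.70% of all genes were higher and 0.766% lower. The median difference was 0.35. Ccl24, the eosinophil attractant eotaxin-2, is like Retnla a known target of interleukin-4, but it was at 10 CPM or more in 2 of 13 Retnla-high cells and 16 of 29 Retnla-low cells, a difference of -3.52. Mrc1, the mannose receptor, was at 8.6, 898.2 and 5121.2 CPM in Retnla-high cells and 53.4, 2613.3 and 9678.7 CPM in Retnla-low cells. Its difference of -1.47 did not meet the rule. The galactose-type lectin genes Mgl2 and Clec10a differed by 0.61 and 0.57, and the transglutaminase gene F13a1 by 0.35. The other resistin-like genes, Arg1 and Chi3l3 are not analysed here.

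Genes of MHC class II presentation, which shows peptides to helper T cells, did not meet the rule in either direction. Over all genes 1.70% were higher and 0.766% lower, so a list of this size would hold few or none at that share. Of 16 compared, 11 differences were above 0 and 5 below, with a median of 1.54 on the log2(CPM + 1) scale. H2-Aa was at 4.5, 15121.6 and 25349.5 CPM in Retnla-high cells and 2.3, 4247 and 44379.5 CPM in Retnla-low cells. It reached 100 CPM in 12 of 13 Retnla-high and 19 of 29 Retnla-low cells, and the mean CPM was 1.568 times higher. H2-Ab1, H2-Eb1 and the invariant chain gene Cd74 differed by 3.68, 3.67 and 2.99. Nearly all Retnla-high cells thus carried these transcripts, while the Retnla-low cells held both the highest values and many near 0.

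The complement and clearance list had a median difference of -1.60. In it 1 of 17 genes was higher and 2 were lower, against 1.70% and 0.766% of all genes. The higher one was Cfp, properdin, which stabilises the alternative pathway convertase: it was above 500 CPM in every Retnla-high cell (518.8, 3331.6 and 7682.3 CPM) and at 0, 357.4 and 5906.3 CPM in Retnla-low cells, a difference of 3.08. C1qa, a chain of the recognition molecule of the classical pathway, was lower with a difference of -2.98, as was Timd4. Among 24 scavenger, lectin and Fc receptors, Stab1, Msr1, Colec12 and Clec4n were lower, and none was higher. Msr1, the class A scavenger receptor, had medians of 1.1 and 194.7 CPM. Of 28 lysosomal genes, the protease gene Ctsl and Cd63 were lower. Of 17 genes of lipid handling, Lpl and Lgals3 were higher and Apoe was lower. Among 21 macrophage markers, C1qa and the transcription factor gene Maf were lower, and the median difference was -0.66.

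The secretory pathway is the route by which a secreted protein such as RELMα leaves the cell. Of its 38 genes compared, 3 were higher and none was lower, against 1.70% and 0.766% of all genes. The median difference was 0.84. Sec61a1, the channel into the endoplasmic reticulum, differed by 3.14. Spcs3, a subunit of the signal peptidase, differed by 2.95, and Sdf2l1, a chaperone-associated protein of the same compartment, by 3.85. The chaperone genes Hspa5 and Hsp90b1 differed by 0.08 and 0.15. Respiratory chain genes had 3 of 74 higher, namely Ndufv2 (4.43), Atp5o (3.43) and Ndufb9 (3.32), and a median of 0.98. For cytosolic ribosomal proteins none of 78 was counted and the median was 0.44. Detection was also higher in Retnla-high cells, and its part in these medians was not tested list by list.

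Signalling and stress lists held a few genes that met the rule. Of 22 chemokine receptors and G protein regulators, Ccr2, Rgs2 and Rgs18 were higher and the sphingosine 1-phosphate receptor gene S1pr1 was lower. S1pr1 was at most 6.6 CPM in Retnla-high cells and at 10 CPM or more in 12 of 29 Retnla-low cells. None of 18 immediate early, 19 inflammatory, 22 interferon-response, 16 iron and haem, 14 integrin and adhesion or 12 cell cycle genes was counted. Over all genes 1.70% were higher and 0.766% lower, so lists of this size would hold few or none at that share. Egr1, an immediate early transcription factor, had means of 2062 ± 2365 and 3059.6 ± 3211.1 CPM (SD). In the heat shock list Hspe1 was higher (2.68) and Dnajb1 lower (-2.47), and in glycolysis the hexokinase gene Hk2 was lower (-2.52). Siglech, a marker of plasmacytoid dendritic cells, was at most 0.6 CPM in Retnla-high cells and reached 10 CPM in 9 of 29 Retnla-low cells; it did not meet the rule in every set with 1 cell left out. Ighm, the immunoglobulin mu chain, reached 10 CPM in 9 of 13 and 20 of 29 cells, nearly the same share.

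**Figure D4:**
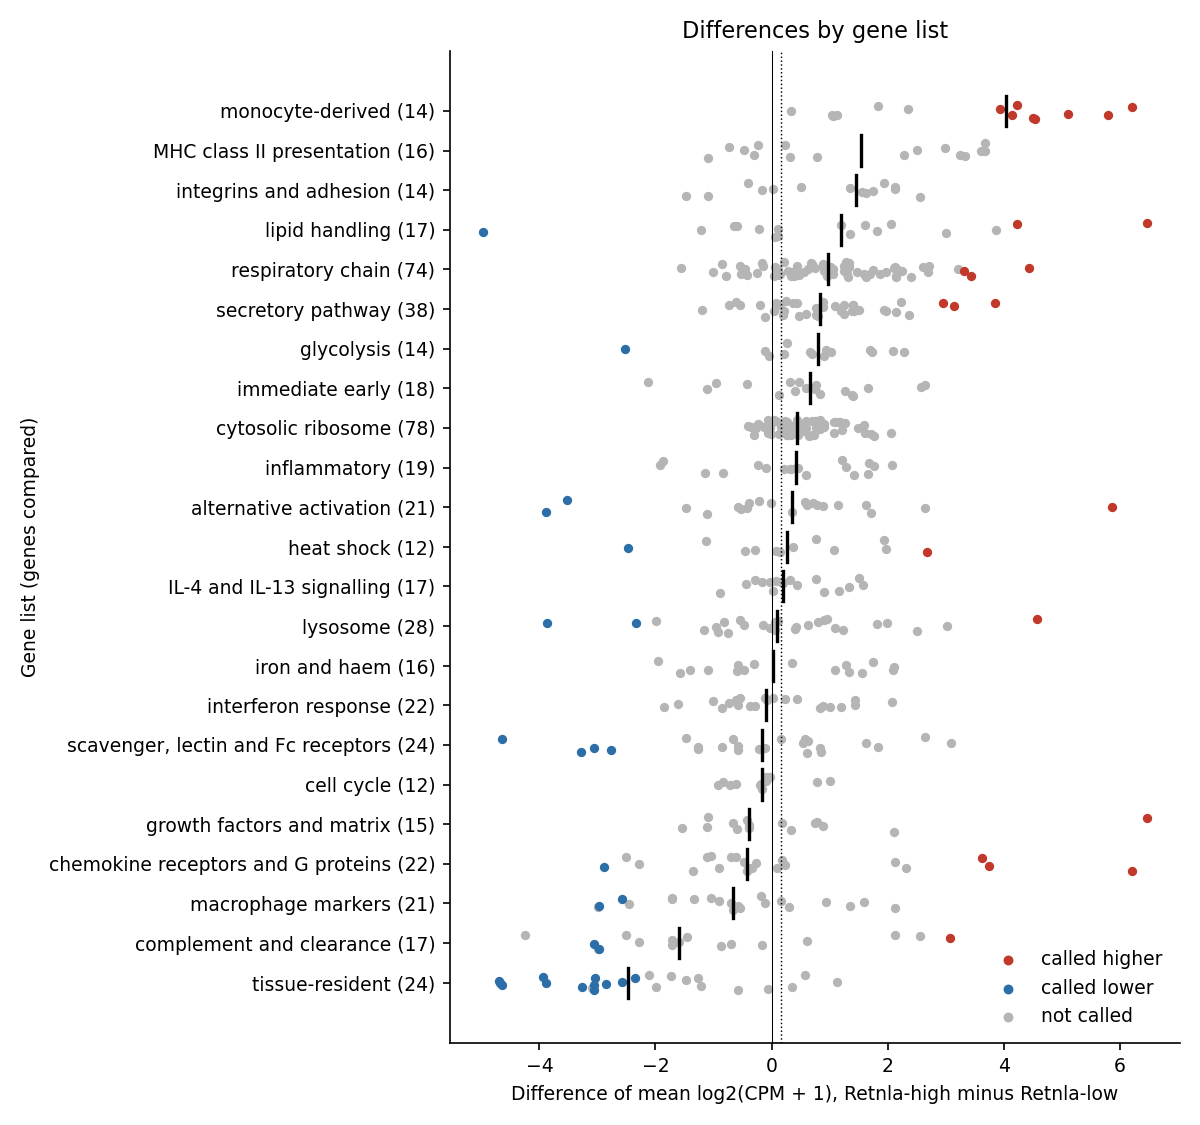
Difference of mean log2(CPM + 1), Retnla-high minus Retnla-low, for each compared member of the lists with at least 10 members; black bars are list medians, the dotted line is the median of all genes (0.16), red and blue points are genes counted as higher or lower. The monocyte-derived list lies farthest right (median 4.03) and the tissue-resident list farthest left (median -2.47). The lists were chosen with earlier results of these data known.

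The Retnla-high cells were not uniform. In order of Retnla, the 2 cells just above the threshold, transcriptomes 55 and 76, had Lyve1 at 1339.1 and 1494.5 CPM, Apoe at 4085.5 and 11135.8 CPM, Ccr2 at 4.5 and 3.8 CPM, and neither Ear2 nor Fn1. Transcriptome 17, at 5082.6 CPM of Retnla, carried both Lyve1 (999.4 CPM) and Ccr2 (4404.2 CPM); doublets were not called. The 6 cells with the most Retnla, from 21985.8 to 57872.1 CPM, all had Ear2 between 469.9 and 1649.2 CPM and Fn1 between 1602.8 and 7428 CPM. In those 6 cells Apoe was at most 122.1 CPM and Lyve1 at most 6.9 CPM. Transcriptome 57, at 5847.5 CPM of Retnla, was similar, with Ear2 at 917.7, Fn1 at 3151.9, Apoe at 19.3 and Lyve1 at 3.3 CPM. So was transcriptome 69, a between cell at 66.4 CPM of Retnla. It held Ear2 at 325.1, Fn1 at 3276.9, Apoe at 84.6 and Lyve1 at 2.6 CPM. Over the 13 cells, the Spearman correlation with Retnla was 0.87 for Ear2 and 0.81 for Fn1, but 0.11 for Ccr2 and 0.34 for Gda. These are descriptions over cells that share a library protocol, have no batch named in the labels, and were picked for high Retnla.

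Aldh1a2 and Cd226 were chosen for description after their values were seen, for their pattern within the Retnla-high cells. Aldh1a2, which makes retinoic acid from retinaldehyde, reached 10 CPM in 6 of 13 Retnla-high cells and in 0 of 33 between and 0 of 29 Retnla-low cells (exact interval of the last up to 11.94%). Its values in those 6 cells were 40.4, 139.9, 151, 478.3, 885.6 and 1147.1 CPM, and all 6 also had Ear2 at 469.9 CPM or more. Cd226, an adhesion receptor, was at 10 CPM or more in 7 Retnla-high cells and at most 1.2 CPM in the Retnla-low cells. It was not confined to Retnla-high cells, since 1 of the 8 between cells with Ccr2 at 100 CPM or more held 124.4 CPM.

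**Figure D5:**
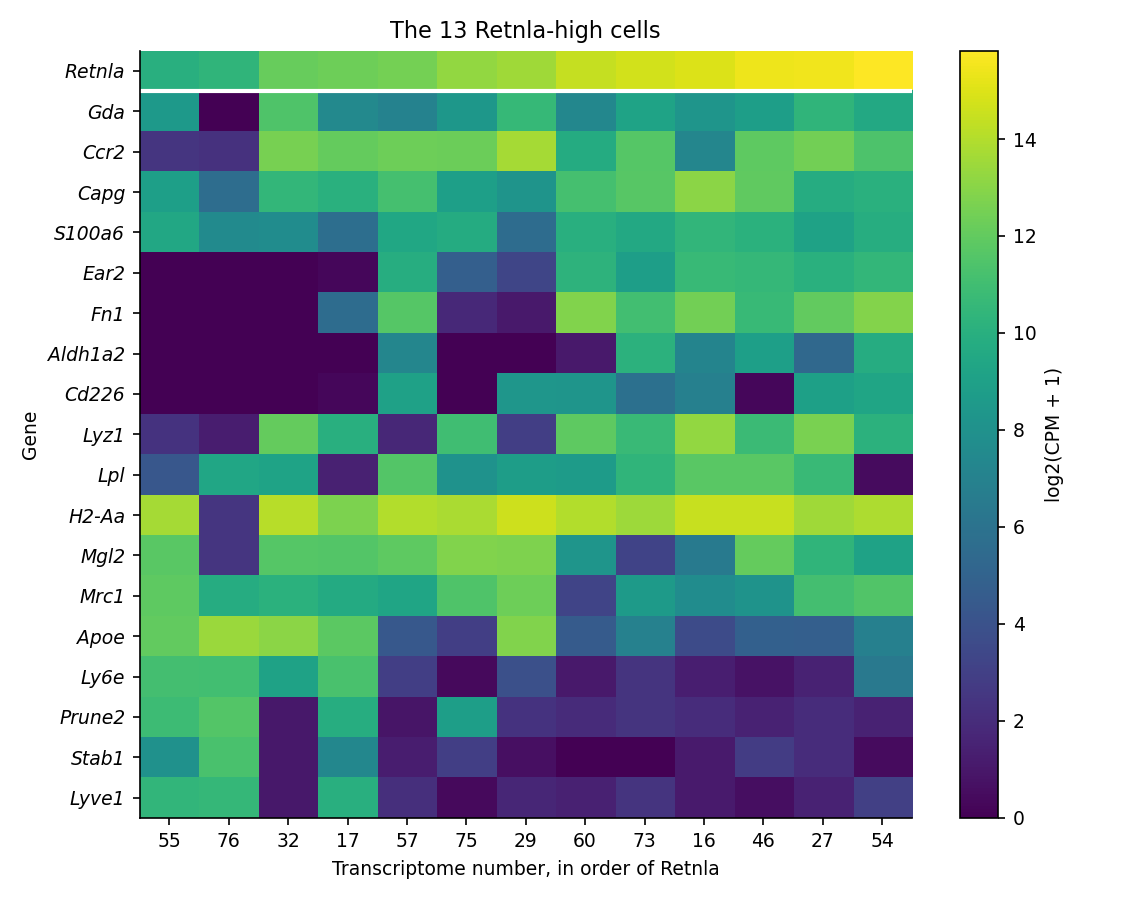
Levels of Retnla and 18 other genes as log2(CPM + 1), by colour, in the 13 Retnla-high cells, ordered from left to right by Retnla. Ear2 and Fn1 are high in the 6 cells on the right and in transcriptome 57, and Apoe, Ly6e and Lyve1 are high in cells on the left.

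Since most Retnla-high cells had Ccr2, the comparison was also made among the 23 cells with Ccr2 at 100 CPM or more, an alternative added after the data were seen. It set 11 Retnla-high cells against only 4 Retnla-low cells. Gda was at 127.5 CPM or more in all 11 and listed at 0 in all 4. Ear2 reached 10 CPM in 8 of 11 and was listed at 0 in the 4; Fn1 reached it in 8 of 11 and 1 of 4. The differences of mean log2(CPM + 1) were 8.94 for Gda, 7.19 for Ear2, 6.43 for Lpl, 6.09 for Fn1, 5.59 for Lyz1 and 5.57 for Cfp. Ccr2 itself differed by 0.36, Clec4b1 by 0.55, Anxa1 by 1.52 and H2-Aa by -0.89. Lyve1 was at most 2.5 CPM in the 4 Retnla-low cells, and its difference turned to 1.32. Among Ccr2-positive cells, then, Gda, Ear2, Lpl and Fn1 still differed by more than 6, Apoe still differed by -3.04, and Lyve1, Gas6 and Maf were no longer lower. Apoe was at 13.7, 179.8, 11276.3 and 36414.9 CPM in the 4 Retnla-low cells. In the 11 Retnla-high cells it was at 6.5, 27.6 and 8497.9 CPM (lowest, median, highest). Other lower genes varied here, with Folr2 at -0.33 and Cd63 at -0.73, but Adap2 at -4.79 and Prune2 at -4.46. Among the cells with Ccr2 below 100 CPM only 2 were Retnla-high, the pair just above the threshold, against 25 Retnla-low cells. There Lpl differed by 5.14 and Gda by 3.10, but Ear2 by -0.27, Fn1 by -0.34 and Lyve1 by 3.19.

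The same Retnla values that defined the sets can be read by class of the other genes, which restates the overlaps given above. Cells with Ear2 at 10 CPM or more had a median Retnla of 24606.5 CPM (10 cells), and those with less had a median of 19.3 CPM (65 cells). Cells with Ccr2 at 100 CPM or more but Ear2 below 10 CPM had a median of 34.55 CPM (14 cells), of which 3 were Retnla-high. Cells with Lyve1 at 100 CPM or more had a median of 28.5 CPM and a highest value of 5082.6 CPM (45 cells).

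The 33 cells between the thresholds took no part in the comparison. Their means lay nearer those of the Retnla-low cells in 131 of the 142 higher genes (92.25%) and 51 of the 64 lower genes (79.69%), against 63.09% of all genes; since the genes were picked for a gap between the outer sets, part of this follows from the choice. Mean log2(CPM + 1) of Gda was 2.83 in these cells, between 1.02 in Retnla-low and 8.22 in Retnla-high cells. For Ear2 it was 0.42, against 0.23 and 6.09, and for Apoe 12.78, against 12.82 and 7.85. Within these 33 cells the median Spearman correlation with Retnla was -0.039 over the higher genes and 0.047 over the lower genes. Over all genes it was -0.013. Single genes went both ways, with 56 of the 142 higher and 39 of the 64 lower genes above 0.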

How the data were processed

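The single group of 76 sorted macrophages was captured on a Fluidigm C1 chip and amplified with SMARTer chemistry, per the labels' protocols, which keeps no strand and no molecular identifiers. The authors deposited counts per 1000000 reads (CPM), rounded to 1 decimal, for 9235 genes; each column sums to that total within rounding. Tools listed in the submitters' processing notes are STAR 2.3.0 and HTSeq 0.6.0, with the build mm9; which annotation was used is not stated there. Depth was estimated from the CPM of 1 read, the step of which low values are whole multiples within 0.051 CPM (259574 to 6290732 reads per cell). Sets were compared by mean log2(CPM + 1) with Python 3.11.15, numpy 2.4.6, pandas 2.3.3 and scipy 1.17.1, and the script was checked on simulated data. Log differences understate changes of low genes. Symbols were matched without regard to case (8175 current, 852 older, 208 unmatched). Named genes are the 15 largest differences in each direction, per list the 4 members above 0 in most cells and every member counted, the 10 genes most like Retnla, and selected markers; a selection is printed, and some are not reported here. Members and lists were chosen with earlier results of these data known. Intervals cover sampling of cells only, no doublets were called, and no cell was left out.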

Additional observations from a re-analysis of the deposited data

How the results depend on the processing

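The comparison gave 142 higher and 64 lower genes. Counts that moved by over 1.5 times were 41 and 23 with a pseudocount of 10 CPM, 90 and 35 with Retnla-high from 500 CPM, 252 and 122 against the 8 Retnla-low cells listed at 0, 353 and 99 without leaving out single cells, and 54 and 18 with a difference of at least 3. Lower genes numbered 140 in the cells with more genes detected. With genes detected as a covariate the counts were 85 and 123, and without the 3 Retnla-high cells with Lyve1 at 100 CPM or more the lower genes numbered 109. Within Lyve1 classes they were 217 lower (3 against 17 cells at 100 CPM or more) and 307 higher (10 against 12 below). Within Ccr2 classes they were 305 lower (2 against 25 cells below 100 CPM) and 441 higher (11 against 4 at or above). The cause of these shifts was not tested. Thinning to 250000 estimated reads gave 143 and 64, of which 128 and 58 were shared with the counts above, and recomputing CPM without Retnla gave 147 and 62. Fewer of the 142 and 64 genes were shared elsewhere: 75 and 29 with Retnla-high from 500 CPM, and 71 and 52 with the covariate. Within classes the shared genes were 88 and 8 with Ccr2 at 100 CPM or more and 22 and 16 below. With Lyve1 at 100 CPM or more they were 25 and 14, and below it 103 and 36. The covariate, the exclusion of Lyve1-positive Retnla-high cells, the CPM without Retnla and the class with Ccr2 at 100 CPM or more were chosen after seeing the data. The comparison within cells with fewer genes detected was not run, because it held 1 Retnla-high and 18 Retnla-low cells. No paired analysis was possible because the cells form a single group.

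Of 1116 differences of named genes counted as higher or lower, taken over the alternatives, 44 took the other sign, all within Lyve1 or Ccr2 classes, where sets were small. Genes not counted could change sign there too, such as H2-Aa (3.25 to -0.89 with Ccr2 at 100 CPM or more). With Lyve1 at 100 CPM or more they were Ear2 (-0.02), Clec4b1 (-0.41), Ly6e (0.47), Prune2 (1.24), Folr2 (0.06), Adap2 (1.55), Glrx (-0.27), Lyve1 (0.68), Ltc4s (2.04), Fcgrt (1.09) and Rgs18 (-0.69). With Ccr2 below 100 CPM the higher genes that turned were Fn1 (-0.34), Ccr2 (-0.42), Ear2 (-0.27), Clec4b1 (-0.48), Lyz1 (-1.53), Glrx (-0.88), S100a4 (-0.61), Ifitm6 (-0.02) and Rgs18 (-0.21). The lower genes that turned there were Ly6e (0.74), Stab1 (1.28), Prune2 (2.46), Folr2 (1.36), Cbr2 (0.08), Cd63 (0.30), Adap2 (2.32), Lyve1 (3.19), Ltc4s (1.68), Fcgrt (1.41), C1qa (0.44), Msr1 (1.28) and Clec4n (0.32). With Ccr2 at 100 CPM or more they were Gas6 (0.37), Ccl24 (0.12), Maf (0.71), Lyve1 (1.32), Timd4 (0.57), Ltc4s (0.82), Colec12 (0.11), Fcgrt (0.36), Emb (-3.01), Dnajb1 (0.08) and S1pr1 (0.18). Gda kept its direction and was counted as higher in 21 of 22 alternatives. Low values limit all of this, since a gene listed at 0 in a cell may have been missed at these depths.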
